A study of Mus musculus with 7 samples.

Results

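The genes that process fibrillar procollagen outside the cell and cross-link it were followed in the infarcted mouse heart. They were chosen by name: the 5 genes of the lysyl oxidase family (Lox, Loxl1, Loxl2, Loxl3 and Loxl4), the procollagen C-proteinase gene Bmp1, and the genes of its enhancer proteins, Pcolce and Pcolce2. All 8 were found among the 56980 genes of the deposited table, and 7 of them were among the 11431 genes that reached 1 FPKM in at least 3 mice and were tested. FPKM scales the fragments counted on a gene by gene length and by library size, so levels of different genes can be set side by side as far as the authors' gene lengths hold, which for 7 of the 8 genes were not those of the annotation used here.

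The mice were wild-type male C57BL/6J animals obtained at 8 weeks of age. In 3 of them the left coronary artery was ligated (MI mice), and 4 had the operation with no ligation (sham-operated mice). Total RNA of myocardial tissue was sequenced at 1 time point, 4 days after surgery, with 1 library per mouse. The study calls the tissue of the MI mice ischemic, and the labels and methods do not say how it was cut from the heart or how much infarct, border and remote muscle each sample held.

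Fibrillar procollagens are secreted with propeptides at both ends. BMP1, an astacin-type metalloproteinase, removes the C-propeptide so that collagen can assemble into fibrils, and the PCOLCE proteins bind that propeptide and speed its removal. The lysyl oxidases are copper-dependent amine oxidases that convert lysine residues of collagen and elastin to reactive aldehydes, from which the cross-links of the fibrils form. BMP1 also cleaves the LOX proenzyme into its active form, so the genes act on one another's products as well as on the matrix of the scar.

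The libraries held 19977713 to 23610870 fragments, with no gap in depth between the groups. One mouse stood apart from its group. In MI replicate 2, mitochondrially encoded genes took 28.2% of fragments, as in the sham-operated mice (26.5% to 27.4%), against 13.6% in MI replicate 1 and 14.9% in MI replicate 3. Its correlation with the sham-operated mice over the tested genes was 0.984 to 0.987, against 0.878 to 0.906 for the other MI mice. For 49.4% of the tested genes its value lay inside the range of the sham-operated mice. The log2 differences of the tested members between the groups are therefore given with and without this mouse. Other results are over all mice unless stated. The labelled tissue was borne out by the cardiomyocyte markers (Myh6, Tnnt2, Tnni3, Actc1, Myl2, Myl3, Ryr2 and Atp2a2), none of which was at 0 in any mouse.

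RefSeq promoter sequences were at hand for 3 of the 8 genes, Loxl4, Pcolce and Pcolce2. They are shown because these genes span the weakest-expressed oxidase and the pair of enhancers that are compared with each other below. Each run below holds the 100 bases before the RefSeq transcription start on GRCm38.p6, written 5′ to 3′ on the strand of the gene. Capitals mark GC boxes, GGGCGG or its reverse complement CCGCCC.
Loxl4, chr19:42612807-42612906, minus strand: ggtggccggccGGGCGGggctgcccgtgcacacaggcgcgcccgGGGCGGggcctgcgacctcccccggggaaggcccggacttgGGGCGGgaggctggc
Pcolce, chr5:137611405-137611504, minus strand: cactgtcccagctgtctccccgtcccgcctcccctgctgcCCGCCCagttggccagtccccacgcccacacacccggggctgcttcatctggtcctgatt
Pcolce2, chr9:95637528-95637627, plus strand: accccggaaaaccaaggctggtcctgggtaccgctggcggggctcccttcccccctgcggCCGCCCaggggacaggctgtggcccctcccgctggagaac

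The Loxl4 window was the richest of the 3 in G and C. Over the full 300 bases, from 250 before to 50 after the start, its GC content was 75% with 32 CG dinucleotides. The same window held 59.3% and 5 CG dinucleotides in Pcolce, and 63.7% and 17 in Pcolce2, where the median over 32851 mouse promoters was 52.7% and 7. All 3 windows held GGGCGG on either strand, which 35.7% of promoters did. TATAAA, the AP-1 letters TGANTCA and the hypoxia response core ACGTG were searched on both strands in the same windows and were in none of the 3; they were in 13.6%, 7.81% and 19.6% of all promoters. These are matches of letters and not measured binding.

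In the sham-operated heart the family was dominated by 1 oxidase. Loxl1 had the highest mean level of the 8 genes, at 13.3 ± 1.83 FPKM (SD, n = 4), and every sham-operated mouse had more of it than of any other member. Pcolce and Loxl2 followed, with ranges that overlapped. Pcolce2 and Bmp1 came next, and their ranges met at the edge, from 3.90 to 4.32 and from 3.70 to 3.91 FPKM. Loxl3, Lox and Loxl4 were lowest, in that order, and their ranges did not touch. In MI replicates 1 and 3 the order was the same in both mice, namely Loxl1, Lox, Loxl2, Pcolce, Loxl3, Bmp1, Pcolce2 and Loxl4. Lox thus stood seventh of the 8 in the mean of the sham-operated mice and second in these MI mice, whereas in MI replicate 2 it stood sixth.

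**Figure D1:**
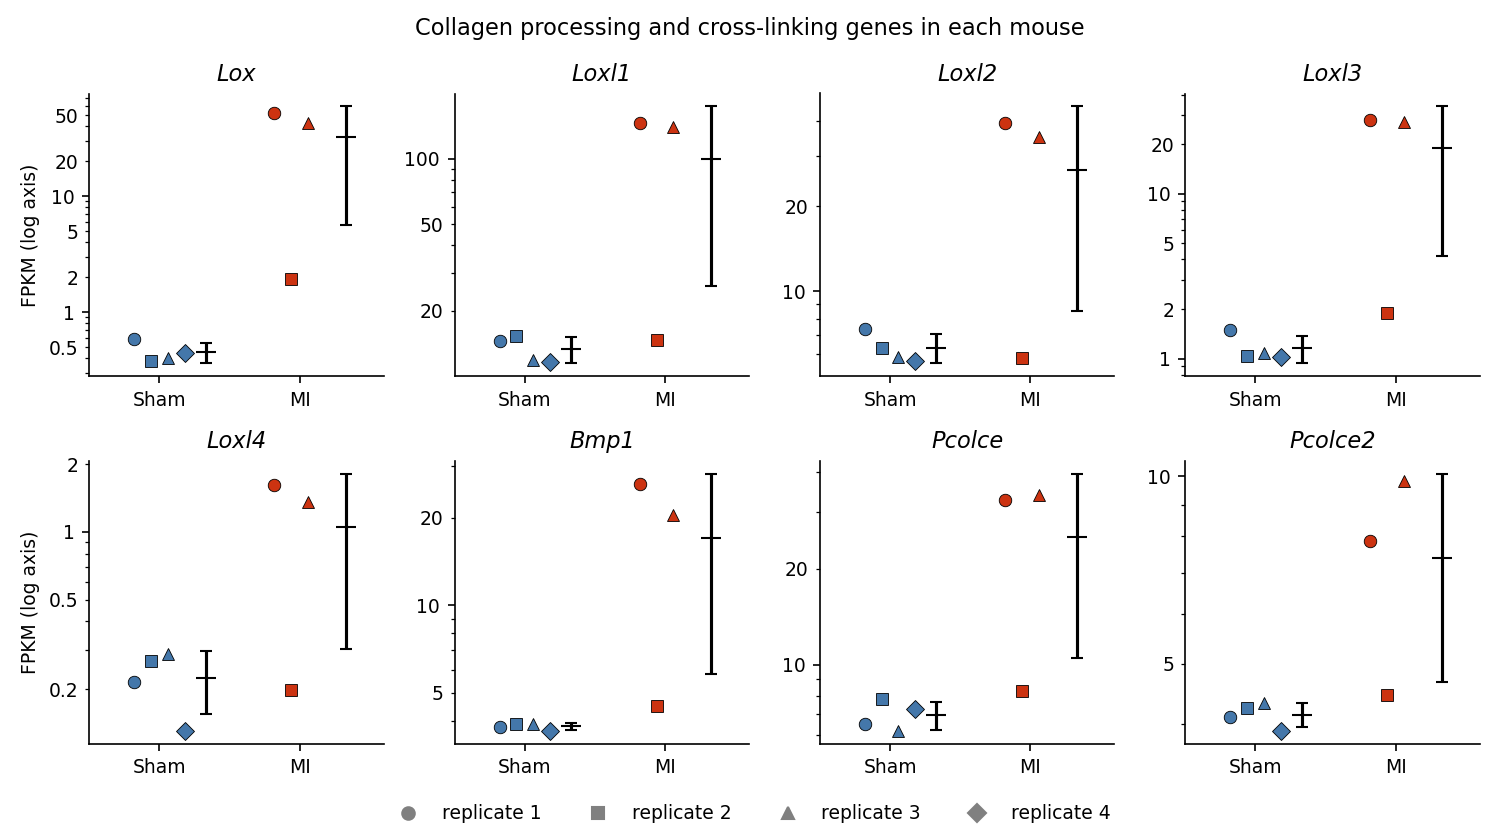
FPKM of the 8 genes on log axes in each of the 4 sham-operated and 3 MI mice, with point shapes for replicate numbers and the group mean ± SD beside the points. MI replicates 1 and 3 lie above all sham-operated mice in every panel, and MI replicate 2 lies within the sham range for Loxl1, Loxl2 and Loxl4.

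Lox encodes the founding lysyl oxidase (chromosome 18, 52516067 to 52529867, minus strand, GRCm38). It was nearly silent in the sham-operated heart, at 0.586, 0.381, 0.402 and 0.449 FPKM, which rested on 71 to 113 fragments. In the MI mice it was at 52.5, 1.94 and 43.1 FPKM, from 9835, 377 and 8747 fragments. Every MI mouse lay above every sham-operated mouse, with MI replicate 2 the lowest by a wide margin. Relative to the mean of the sham-operated mice the MI mice were at 116-fold, 4.27-fold and 94.9-fold.

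On the log2(FPKM + 1) scale used for the tests, which understates the change of low genes, the difference for Lox was 3.72 (SE 0.94, 95% interval 1.52 to 5.91). This was the 11th highest among the 11431 genes. It did not pass limma's moderated test after Benjamini-Hochberg adjustment over all genes (adjusted p = 0.108), and the exact two-sided permutation test gave p = 0.0571, the smallest value that the 35 splits of 7 mice allow. Without MI replicate 2 the difference was 5.06 (SE 0.098) and passed (limma adjusted p = 3.44e-07). No sham-operated mouse reached 1 FPKM, so Lox was tested only through its level in the MI mice. Lox shares 30 exon bases with the antisense gene AC161119.1. In bulk tissue, a change in the number of cells that express a gene and a change in its RNA per cell cannot be told apart.

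Loxl3, which encodes another collagen oxidase of the family (chromosome 6, 83034173 to 83052562, plus strand), came closest to Lox. Its levels were 1.48, 1.03, 1.09 and 1.02 FPKM in the sham-operated mice and 28.1, 1.88 and 27.3 FPKM in the MI mice. The groups did not overlap, although MI replicate 2 was only 1.63-fold above the mean of the sham-operated mice, where the others were 24.3-fold and 23.6-fold above it. The log2 difference was 2.63 (SE 0.77; limma adjusted p = 0.108), and 3.74 without MI replicate 2 (limma adjusted p = 7.88e-07). Loxl3 shares 535 exon bases with Htra2, a mitochondrial protease gene on the opposite strand, and whether counting used the strand is not given in the sources used here. Htra2 itself was between 1.54 and 2.63 FPKM in the sham-operated mice and at 3.15, 1.83 and 2.86 FPKM in the MI mice. It was thus above Loxl3 in the sham-operated mice, about level with it in MI replicate 2 and below it in MI replicates 1 and 3, and the part of its fragments in the values of Loxl3 was not tested.

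Loxl1, whose product is known for its part in elastic fibre upkeep (chromosome 9, 58287738 to 58313186, minus strand), was the most abundant member in every mouse. The sham-operated mice had 14.5, 15.3, 11.95 and 11.6 FPKM, and the MI mice had 145, 14.7 and 139 FPKM. MI replicates 1 and 3 were thus about as high as each other, at 10.9-fold and 10.5-fold of the sham mean, and MI replicate 2 lay inside the sham range. The log2 difference over all mice was 2.27 (SE 0.74), which did not pass (limma adjusted p = 0.108; exact permutation p = 0.114). Without MI replicate 2 it was 3.33 (limma adjusted p = 2.5e-06).

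Loxl2 encodes an oxidase that acts on collagen of fibrils and basement membranes (chromosome 14, 69609068 to 69695834, plus strand). It was at 7.34, 6.34, 5.88 and 5.70 FPKM in the sham-operated mice and at 39.3, 5.84 and 35.2 FPKM in the MI mice. MI replicate 2 again lay among the sham-operated mice, at 0.925 of their mean, while the other MI mice were 6.22-fold and 5.57-fold above. The log2 difference of 1.56 (SE 0.58) did not pass over all mice (limma adjusted p = 0.111; exact permutation p = 0.229). It was 2.39 without MI replicate 2 (limma adjusted p = 5.42e-06). Loxl2 shares 301 exon bases with the antisense gene Gm27177.

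Loxl4 (chromosome 19, 42593982 to 42612813, minus strand), the remaining oxidase, was close to the limit of detection. The sham-operated mice had 0.216, 0.267, 0.286 and 0.131 FPKM, from 14 to 36 fragments. The MI mice had 1.62, 0.198 and 1.35 FPKM, from 189, 24 and 171 fragments. With only 2 mice above 1 FPKM it did not enter the fit. The groups overlapped through MI replicate 2, and an exact permutation test of the log2 difference of 0.67 gave p = 0.229.

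Bmp1 (chromosome 14, 70474558 to 70520234, minus strand) varied least, relative to its mean, among the sham-operated mice, at 3.82, 3.91, 3.91 and 3.70 FPKM. Its levels in the MI mice were 26.2, 4.51 and 20.5 FPKM. All 3 were above the sham range, by 6.82-fold, 1.18-fold and 5.33-fold of the sham mean. The log2 difference was 1.61 (SE 0.50; limma adjusted p = 0.108; exact permutation p = 0.0571), and 2.32 without MI replicate 2 (limma adjusted p = 4.73e-06).

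Both enhancer genes were above the sham range in every MI mouse, but by unequal amounts. Pcolce (chromosome 5, 137605103 to 137613784, minus strand) was at 6.51, 7.78, 6.20 and 7.27 FPKM in the sham-operated mice and at 32.8, 8.26 and 34.0 FPKM in the MI mice. Pcolce2 (chromosome 9, 95637601 to 95698096, plus strand) was at 4.10, 4.24, 4.32 and 3.90 FPKM and at 7.86, 4.46 and 9.81 FPKM. MI replicates 1 and 3 therefore stood 4.73-fold and 4.91-fold above the sham mean for Pcolce, and 1.90-fold and 2.37-fold for Pcolce2, the smallest ratios of the 8 genes in both mice.

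The log2 differences of the enhancer genes were 1.49 (SE 0.45) for Pcolce and 0.65 (SE 0.22) for Pcolce2, neither of which passed (limma adjusted p = 0.108 for both). Without MI replicate 2 they were 2.12 and 0.93 and passed (limma adjusted p = 5.33e-06 and 1.11e-04). Pcolce shares 112 exon bases with Fbxo24 on the same strand and with the antisense gene Gm36266.

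**Figure D2:**
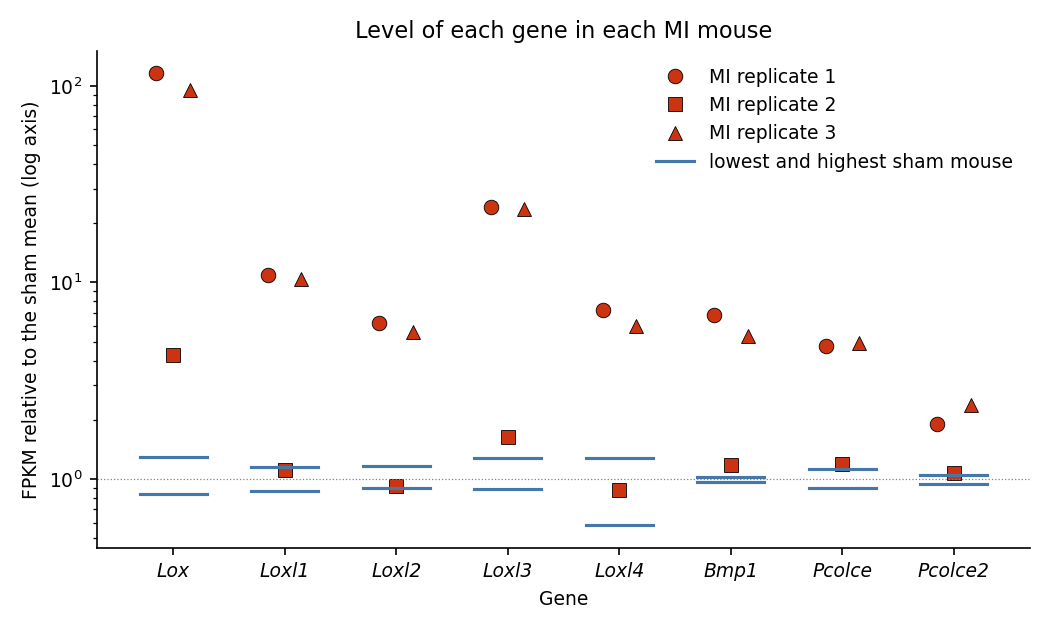
Fold of each MI mouse over the mean of the 4 sham-operated mice, on a log axis, for the 8 genes, with lines at the lowest and highest sham-operated mouse. Lox reaches 116-fold in MI replicate 1 and 94.9-fold in MI replicate 3, Pcolce2 stays at 1.90-fold and 2.37-fold in the same mice, and MI replicate 2 lies between 0.879-fold and 4.27-fold.

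Over all mice, then, 0 of the 7 tested genes passed limma's adjusted threshold of 0.05, where 0.0175% of all tested genes passed it as higher and 0.00875% as lower. At an unadjusted p under 0.05 the count was 7 of 7, against 29.5% of all tested genes that were higher and 9.85% that were lower at that level. It was 4 of 7 without MI replicate 1 (9.18% of all tested genes) and 3 of 7 without MI replicate 3 (8.33%), and 6 of 7 without sham replicate 2 (17.1%), 3 (17.3%) or 4 (16.6%). The voom fit of recovered fragments called 0 after adjustment (0.00875% of all genes in that fit) and 7 of 7 before it (28.7%). Lox, which was tested only through the MI mice and so could only be higher, is among the genes in each of these counts before adjustment, which without it are 6 of 6 over all mice and by voom, 3 of 6 without MI replicate 1, 2 of 6 without MI replicate 3, and 5 of 6 without sham replicate 2, 3 or 4. Every MI mouse was above the sham range for 5 of the 8 genes (5 of 7 tested), against 16.1% of all tested genes. These were Lox, which could only be higher, and Loxl3, Bmp1, Pcolce and Pcolce2. The median log2 difference of the 7 genes, Lox included, was 1.61, and it was 0.21 over all tested genes, 73.0% of which were above 0. Without MI replicate 2, which left 2 MI mice, 7 of 7 were called higher (6 of 6 without Lox), against 57.0% of all tested genes. In that fit 14.7% of genes were called lower. With weights estimated for each mouse 7 of 7 were called too (6 of 6 without Lox), against 66.8% of all tested genes higher and 20.3% lower, but nearly all weight then fell on MI replicate 3.

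**Figure D3:**
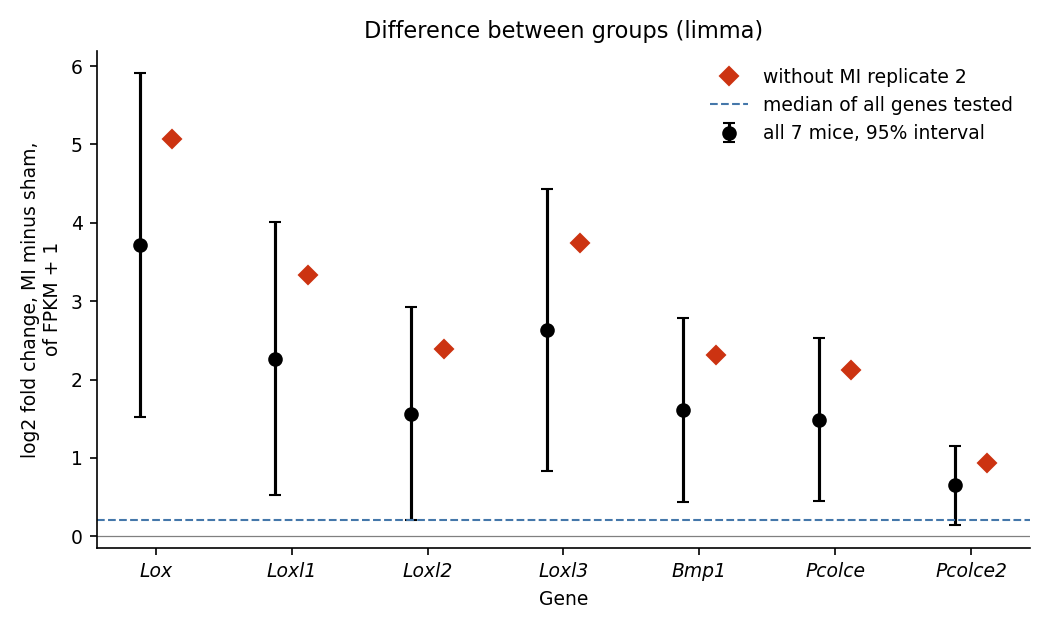
Difference in log2(FPKM + 1) between MI and sham-operated mice for the 7 tested genes from limma, over all 7 mice (with 95% intervals) and without MI replicate 2, with a dashed line at the median of all tested genes, 0.21. The estimates without MI replicate 2 are the higher for every gene, 5.06 against 3.72 for Lox and 0.93 against 0.65 for Pcolce2.

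The makeup of the lysyl oxidase family was then compared within each mouse, where library size cancels out. The summed level of the 5 oxidases was 24.1, 23.3, 19.6 and 18.9 FPKM in the sham-operated mice and 267, 24.6 and 246 FPKM in the MI mice. MI replicate 2 was thus just above the highest sham-operated mouse in total oxidase RNA. Its makeup, however, lay between the sham-operated and the other MI mice for Lox, Loxl1, Loxl2 and Loxl3.

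Lox made up 2.43%, 1.63%, 2.05% and 2.37% of the sum in the sham-operated mice and 19.7%, 7.88% and 17.5% in the MI mice. Loxl3 made up 5.38% ± 0.71 (SD, n = 4) in the sham-operated mice and 9.75% ± 1.83 (SD, n = 3) in the MI mice. Loxl2 made up 30.4%, 27.2%, 30.0% and 30.1% in the sham-operated mice and 14.7%, 23.8% and 14.3% in the MI mice. Loxl1 kept the largest share throughout, at 60.1% to 65.6% in the sham-operated mice and 54.5%, 59.9% and 56.6% in the MI mice.

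For these 4 oxidases the shares of the groups did not overlap, Lox and Loxl3 being higher in the MI mice and Loxl1 and Loxl2 lower. The exact permutation test gave p = 0.0571 for each (0.0714 after Benjamini-Hochberg adjustment over the 5 genes), which is the smallest p the design allows and does not reach 0.05. For Loxl1 the groups were only narrowly apart, at 59.9% in MI replicate 2 and 60.1% in sham replicate 1. Counted as fragments not divided by length, which favours longer genes, the mean share of Lox differed by 22.3 percentage points between the groups in place of 12.9, and that of Loxl2 by -18.5 in place of -11.9. Loxl4 held 0.548% to 1.46% in any mouse, with overlapping groups. A share can only be higher where another is lower, so the 5 comparisons are not independent.

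**Figure D4:**
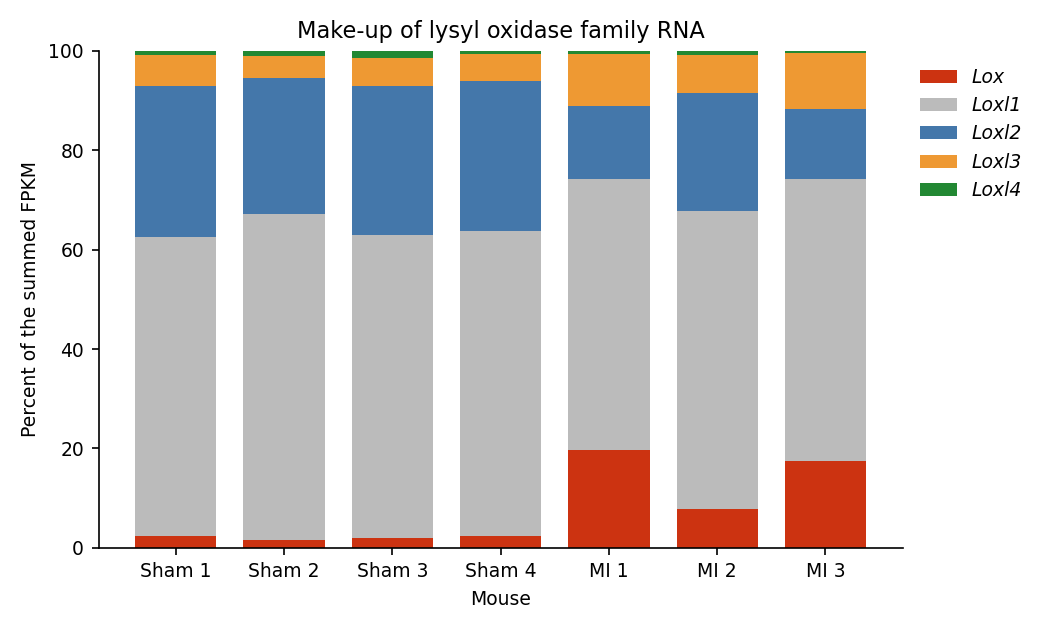
Share of each lysyl oxidase in the summed FPKM of the family, in percent, as stacked bars for the 7 mice. Lox takes 1.63% to 2.43% in the sham-operated mice and 19.7%, 7.88% and 17.5% in MI replicates 1, 2 and 3, and Loxl2 takes 27.2% to 30.4% and 14.7%, 23.8% and 14.3%.

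Ratios between pairs of genes within a mouse gave the difference between their responses directly. The ratio of Lox to Loxl2 was between 0.060 and 0.080 in the sham-operated mice and was 1.34, 0.332 and 1.23 in the MI mice. Lox therefore overtook Loxl2 in MI replicates 1 and 3 and stayed below it in MI replicate 2. Against Loxl3 the ratio went from 0.369 to 0.439 in the sham-operated mice to 1.87, 1.03 and 1.58, so that Lox exceeded Loxl3 in all MI mice and in no sham-operated mouse.

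On the log2(FPKM + 1) scale the response of Lox exceeded that of Loxl1 by 1.45 (95% interval 0.75 to 2.14), that of Loxl2 by 2.15 (1.02 to 3.29), that of Loxl3 by 1.08 (0.52 to 1.64) and that of Loxl4 by 3.05 (0.88 to 5.21). With a pseudocount of 0.1 the excess of Lox was 2.60 over Loxl1, 3.26 over Loxl2, 1.71 over Loxl3 and 3.42 over Loxl4. The response of Pcolce exceeded that of Pcolce2 by 0.84 (0.04 to 1.64). For each of these 5 pairs the groups did not overlap, with an exact permutation p of 0.0571 (0.0686 after Benjamini-Hochberg adjustment over the 6 pairs compared). For Pcolce over Pcolce2 this held narrowly. With a pseudocount of 0.1 the groups of this pair overlapped (0.84, exact permutation p = 0.114), and the plain FPKM ratio was 1.85 in MI replicate 2 and reached 1.86 in a sham-operated mouse.

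Bmp1 and Pcolce, the proteinase and its enhancer, were the exception. Their FPKM ratio was between 0.503 and 0.631 in the sham-operated mice and 0.797, 0.546 and 0.601 in the MI mice, so the groups overlapped. The log2 difference between their responses was 0.12 (95% interval -0.24 to 0.48; exact permutation p = 0.514), so a difference anywhere in that interval was not told apart from 0. Without MI replicate 1 its sign turned, to -0.018.

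The members were also set against their main substrates, the fibrillar procollagens. The mean log2(FPKM + 1) of Col1a1, Col1a2 and Col3a1 was 4.08 to 4.47 in the sham-operated mice and 9.15, 5.26 and 8.70 in the MI mice, a mean difference of 3.45. MI replicate 2 was thus above the sham range for the procollagens too. With the pseudocount of 1 Lox was the member closest to them in its response. Its level minus that of the procollagens was -3.81, -3.80, -3.72 and -3.54 in the sham-operated mice and -3.41, -3.71 and -3.24 in the MI mice, which overlapped. The difference of 0.26 (95% interval without moderation between genes -0.08 to 0.61) gave p = 0.114 by the exact permutation test. Its SE was far larger in limma's fit, 0.99 (limma adjusted p = 0.791). With a pseudocount of 0.1 the difference was 1.41, and Loxl3, at -0.30, was the closest member. The size for low genes and the order of the members thus rest on the pseudocount.

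The other members were lower relative to the procollagens in every MI mouse than in any sham-operated mouse, by -1.18 for Loxl1, -1.89 for Loxl2, -0.82 for Loxl3 (-0.30 with a pseudocount of 0.1), -2.78 for Loxl4, -1.84 for Bmp1, -1.96 for Pcolce and -2.80 for Pcolce2. That was so of 98.4% of all tested genes (the reverse of 0.0612%), and 99.9% had a difference under 0. The median difference over all tested genes was -3.24, and the count says nothing particular about the members. The differences of all 8 genes were nearer to 0 than that median. This restates that their log2 differences between the groups were above the median of 0.21 over all tested genes. In limma's fit 1 of the 7 tested members passed, Pcolce2 (adjusted p = 0.00569), where 97.7% of all tested genes passed as lower. Each gene in this fit carries the same reference values, so its p-values are not independent of one another, and without moderation between genes 6 of the 7 passed, against 99.0% of all tested genes. Without MI replicate 2 the moderated fit called 6 of the 7, against 99.8%, and with Col1a1 alone as the reference 2, against 97.9%.

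**Figure D5:**
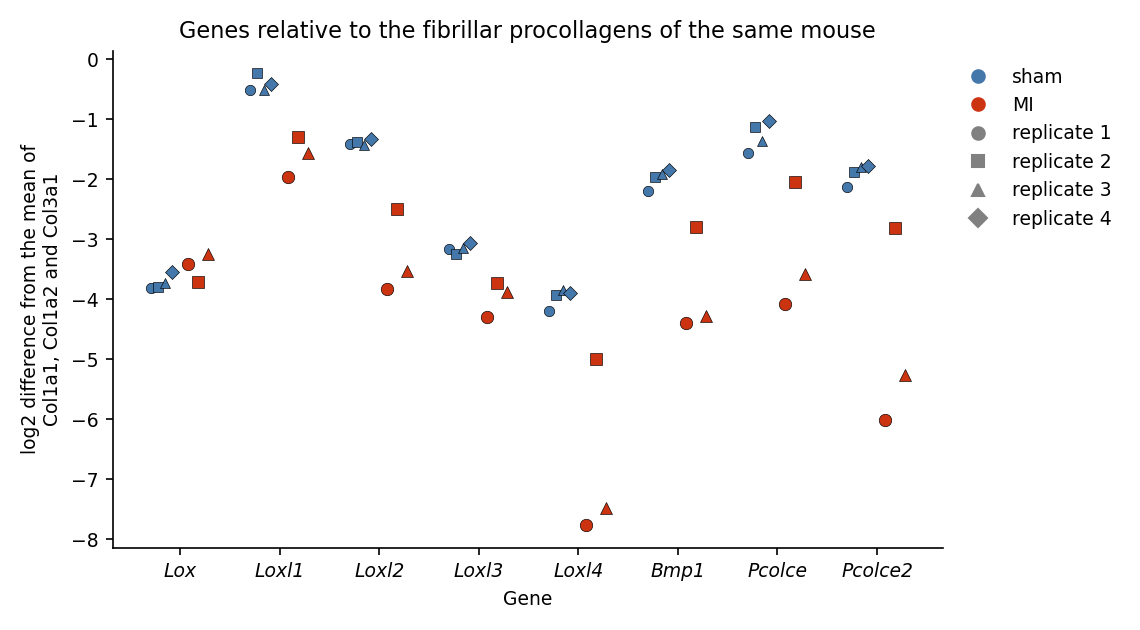
Level of each of the 8 genes minus the mean of Col1a1, Col1a2 and Col3a1 in the same mouse, in log2(FPKM + 1) units, for each sham-operated and MI mouse, with point shapes for replicate numbers. For Lox the MI mice (-3.41, -3.71 and -3.24) overlap the sham-operated mice, and for the other 7 genes all MI mice lie below all sham-operated mice.

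Fibroblasts are the main source of fibrillar collagen in the heart, and their marker genes (Pdgfra, Dpt, Tcf21, Ddr2, Gsn and Col15a1) were used as a second reference. Their mean log2(FPKM + 1) differed by 0.97 between the groups. Relative to them, Lox was 2.75 and Loxl3 1.67 higher in the MI mice, and the MI mice were all above the sham range for both, as for 1.28% of all tested genes. Loxl1 was 1.301, Bmp1 0.64, Loxl2 0.59 and Pcolce 0.52 higher, with overlapping groups. In limma's fit on this scale 4 of the 7 members (Lox, Loxl1, Loxl3 and Bmp1) were called above (3 of 6 without Lox, which passed the filter only through the MI mice), against 1.54% of all tested genes. Pcolce2 was at -0.32 and Loxl4 at -0.30. Each difference to a reference is the log2 difference of the gene minus that of the reference. The latter was 3.45 for the procollagens and 0.97 for the fibroblast markers. The sign turned for Loxl1, Loxl2, Loxl3, Bmp1 and Pcolce, as for any gene whose log2 difference lies between these values.

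Markers of cell types were summed beside the members. In each marker list 0 genes passed limma's adjusted threshold over all mice, and the counts of genes higher in the mean are to be read against the 73.0% of all tested genes that were. At an unadjusted p under 0.05, 29.5% of all tested genes were higher and 9.85% lower. Higher at that level were 4 of 6 fibroblast, 3 of 4 myofibroblast and 6 of 6 macrophage markers tested. So were 4 of 4 mesothelial and 1 of 3 smooth muscle markers. Cthrc1, Fcgr1 and Krt19, tested only through the MI mice, are among those higher. Lower were 5 of 8 cardiomyocyte, 1 of 3 smooth muscle and 1 of 2 skeletal muscle markers. Summed FPKM of the fibroblast markers was 266 to 322 in the sham-operated mice and 434, 353 and 494 in the MI mice, and 5 of the 6 were higher in the mean. The myofibroblast markers (Cthrc1, Fap, Acta2, Tagln and Ddah1) summed to 59.1 to 85.4 and to 272, 60.7 and 297, with 4 of 4 tested genes higher in the mean. The macrophage markers (Cd68, Adgre1, Csf1r, Lyz2, Cd14 and Fcgr1) summed to 113 to 151 and to 802, 138 and 697, with 6 of 6 higher. Cthrc1 (0.0188 to 0.102 FPKM in the sham-operated mice) and Fcgr1 (0.525 to 0.772) were tested only through the MI mice, so they could only be higher. Gsn, Acta2 and Lyz2 had the highest level of their lists in every mouse. Gsn, however, was not higher in the mean, at 242 FPKM in the sham-operated and 235 FPKM in the MI mice. Single markers of MI replicate 2 differed from the sums. In that mouse 4 of 6 fibroblast markers were above the sham range and Col15a1 was below it, 3 of 5 myofibroblast markers (Cthrc1, Fap and Tagln) were above and Acta2 was below, and 2 of 6 macrophage markers (Cd14 and Fcgr1) were above.

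The 8 cardiomyocyte markers summed to 15044 to 16304 in the sham-operated mice and to 9641, 15098 and 10247, with 0 of 8 higher in the mean. The mesothelial markers (Msln, Upk3b, Krt19, Wt1 and Lrrn4) summed to 3.80 to 8.94 and to 24.5, 18.1 and 37.2, higher in MI replicate 2 as well, with 4 of 4 tested genes higher, of which Krt19 was tested only through the MI mice. The endothelial markers (Pecam1, Cdh5, Kdr, Tie1 and Tek) summed to 119 to 139 and to 144, 112 and 156, with 4 of 5 higher. The smooth muscle markers (Myh11, Cnn1, Smtn and Lmod1) summed to 45.0 to 49.0 and to 43.9, 43.6 and 47.0, with 2 of 3 tested genes higher.

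Of the skeletal muscle markers, Myh4 was at 0 in every mouse, and Myh1 and Myh2 were at or near 0. The sum of 741 to 1072 and of 761, 839 and 934 was carried by Acta1 and Ckm, which the heart also expresses. Tnnt3, the remaining marker of that list, did not pass the filter. Sham levels of this gene ran from 0.138 to 0.208 FPKM, and MI replicates 1, 2 and 3 had 1.88, 0.221 and 2.54 FPKM. Each MI mouse was thus above the sham range for Tnnt3. Tnmd, a defining tendon gene, was at 0 in the sham-operated mice and in MI replicate 2 and at 1.798 and 1.784 FPKM in MI replicates 1 and 3. The tendon and cartilage markers (Tnmd, Scx, Mkx, Chad, Acan and Col9a1) summed to 1.07 to 1.74 and to 9.96, 0.941 and 10.3. The 1 tested gene, Scx, was higher in the mean only (limma unadjusted p = 0.0542). Its level in MI replicate 2, 0.886 FPKM, was just under the lowest sham-operated mouse, 0.889 FPKM. The part of cell makeup in the values of the 8 members was not tested. The fibroblast reference above does not separate the number of cells from the RNA per cell.

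The remaining steps of the pathway were described from lists of named genes. In each list 0 genes passed limma's adjusted threshold over all mice, and the counts at an unadjusted p under 0.05 are given instead, a level at which 29.5% of all tested genes were higher and 9.85% lower. All genes counted at that level in these lists were higher. Of 9 fibrillar procollagen genes 6 were tested, with a median log2 difference of 3.12 and 5 under that level. Among the other procollagen proteinases and convertases, 3 of 10 were tested with a median of 0.26, close to that of all genes, and 2 were under it. Adamts2, the main procollagen N-proteinase, stood out from this list at 3.22 to 4.00 FPKM in the sham-operated mice and 38.7, 5.32 and 37.5 FPKM in the MI mice (log2 difference 2.26). Furin and Pcsk6, convertases that cut proproteins, differed by 0.26 and 0.20.

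Upstream of the oxidases, 6 of 7 genes of lysine hydroxylation and transglutamination were tested, with a median of 0.94 and 4 under an unadjusted p of 0.05. Plod2, the telopeptide lysyl hydroxylase, had the largest difference of that list, 1.301, and Fkbp10, its folding partner, had 1.20, while Plod1 had 0.36. Copper supply, on which the oxidases depend, had 3 of 5 genes tested, with a median of 0.37 and 1 under that level, near the share of all genes. The copper importer gene Slc31a1 differed by 0.08 and the copper chaperone gene Atox1 by 0.71.

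Downstream, the 8 genes of elastic fibre substrates and LOX partners were all tested, with a median of 2.35 and 7 under an unadjusted p of 0.05. Eln, the elastin gene, was at 4.33 to 6.79 FPKM in the sham-operated mice and 198, 20.4 and 214 FPKM in the MI mice (log2 difference 3.92). Postn, whose product periostin brings BMP1 to the matrix where LOX is activated, was at 3.12 to 4.06 FPKM and at 206, 10.8 and 200 FPKM (4.10). MI replicate 2 lay above the sham range for both genes, though far below its group mates.

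All 6 small leucine-rich proteoglycans that bind collagen were tested, with a median of 2.36 and 6 under that level. They ran from Ogn at 1.17 to Fmod, whose product fibromodulin binds both collagen and LOX, at 3.04. Of 5 other targets and modulators of BMP1, 2 were tested and both were under that level. Sfrp2, an extracellular Wnt modulator that has been linked to BMP1 activity, was at 0.426 to 1.42 FPKM in the sham-operated mice and 159, 4.60 and 151 FPKM in the MI mice (4.82), and Timp1, a metalloproteinase inhibitor, differed by 3.75. Without MI replicate 2 all tested genes of these lists passed as higher except 1 of the elastic fibre list, against 57.0% of all genes.

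For each tested member the genes with the most similar profile were found by the root mean square difference of log2(FPKM + 1), centred on the sham mean, over the 7 mice. Lox was nearest to Col1a1 (0.0954), Cilp (0.107) and Mfap4 (0.129). Col1a1 was at 17.1 to 23.0 FPKM in the sham-operated mice and at 768, 40.5 and 569 FPKM in the MI mice. Loxl1 was nearest to Ctss, Serpinf1 and Csrp2, from 0.162 to 0.165. Loxl2 was nearest to Tmsb10, Fxyd6 and Snai1, from 0.0678 to 0.0934, and Loxl3 to Fstl1, Mpeg1 and Col8a1, from 0.0574 to 0.116. Bmp1 was nearest to Ltbp3, Antxr1 and Igf1, from 0.0503 to 0.0761. Pcolce had Pdlim3, Islr and Lrrc17, from 0.0749 to 0.0944, and Pcolce2 had Ltbp4 (0.0382) and Ccdc157 (0.0570). No 2 members shared a neighbour named here.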

How the data were processed

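Values were taken from 1 table of 56980 genes, which the authors deposited as FPKM for 7 mice (4 sham-operated, 3 MI, grouped by the treatment label), and 0 value columns were left unused. The submitters' processing notes name mm10, CASAVA 1.8, HISAT2, SAMtools 1.3.1 and edgeR. The annotation, the counting program and the use of strand are not given in the sources used here. Nothing says more of the replicates than that each is a separate mouse with 1 library.

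Identifiers were joined to the GENCODE M21 annotation of GRCm38, where 52125 (91.5%) were found. Within a mouse FPKM moved in whole steps, and whole fragments were recovered for 30502 of 30504 genes above 0, by finding the gene length from 20 to 120000 bases at which each mouse came within 0.05 of a whole fragment. Depth was 19977713 to 23610870 fragments per mouse. The implied lengths equalled the GENCODE exon length for Loxl1 (3297 bases) and not for the other members (8593 against 4778 for Lox), so levels between genes depend on the authors' gene models.

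Values were tested as log2(FPKM + 1) with limma 3.58.1 (eBayes with trend) in R 4.3.3, for genes at 1 FPKM or more in at least 3 mice, with Benjamini-Hochberg adjustment at 0.05. Single values were compared by exact two-sided permutation over 35 splits. The same steps were tested on simulated data. Tables and permutations were made in Python 3.11.15 with SciPy 1.17.1, NumPy 2.4.6 and pandas 2.3.3, and plots with matplotlib 3.10.9. Intervals of differences are 95% intervals. Those of log2 differences between the groups are limma's. Those of pairs of genes and of Lox against the procollagens are t intervals without moderation between genes. Promoters were from RefSeq on GRCm38.p6.

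The members, marker lists and pathway lists were chosen with earlier results of these data known. Genes named are the members, the genes of those lists and the 3 nearest profiles of each tested member, of which 1 is not reported here. Htra2, Fbxo24, Gm36266, Gm27177 and AC161119.1 were named after their values or positions were seen, as genes that share exon bases with members. Alternatives were rescaling to TPM, a filter on the mean, no filter, a pseudocount of 0.1, median log-ratio scaling, mitochondrial genes left out, limma without trend, sample weights, voom weights on recovered fragments, a replicate block, other references for the members, recovered fragments in place of FPKM and Loxl4 left out for the shares, and each mouse left out. A fit without moderation was added after the data were seen.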

Additional observations from a re-analysis of the deposited data

Results flagged for a closer look

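Loxl3 in the sham-operated mice was set apart by sham replicate 1. It had the highest level of the 4 mice, 1.48 FPKM from 184 fragments against 1.02 to 1.09 FPKM from 113 to 141 fragments, and its gap to the next mouse made up 0.862 of the whole range of the group, past the 95% limit of Dixon's test for 4 samples. MI replicate 2, at 1.88 FPKM, still lay above it.

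The share of Loxl2 in the summed FPKM of the lysyl oxidases was lowest in sham replicate 2, at 27.2% against 30.0% to 30.4% in the other sham-operated mice, a gap of 0.861 of the range. The MI mice, at 14.7%, 23.8% and 14.3%, were below all of them.

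The test was run on 27 sets of 4 sham-operated mice, of which chance alone gives about 1.35 past the limit. Groups of 3 were not tested, so MI replicate 2 was not examined this way.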

How the results depend on the processing

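With n = 4 and 3, no exact permutation test could reach 0.05. With a mouse left out, members passed limma's adjusted threshold only without MI replicate 2, where 57.0% of all tested genes were called higher. Over all genes tested, 2 were called higher and 1 lower in the MI mice. The count of higher genes was 5 with a pseudocount of 0.1, 20 with no filter, 0 when genes were filtered by mean level (by limma, with 3639 under 0.05 before adjustment), 8 with TPM, 10 with median log-ratio scaling, 9 without mitochondrial genes, 1 with voom, 7636 with sample weights, and 0 to 6512 with a mouse left out (6512 without MI replicate 2, 4 without MI replicate 1 and 0 without any other mouse). That of lower genes was 0, 5, 3 and 2316 with the mean filter, median log-ratio scaling, mitochondrial genes left out and sample weights, and 0 to 1683 with a mouse left out (1683 without MI replicate 2, and 0 without sham replicate 1 or 3 or MI replicate 3). The sample weights gave MI replicate 3 a weight of 437 and MI replicate 2 one of 0.022, so they rest on 1 MI mouse.

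Members called higher numbered 0 over all mice, 7 with sample weights and 0 to 7 with a mouse left out, 7 only without MI replicate 2. With sample weights the log2 differences were 4.93 for Lox, 3.29 for Loxl1, 2.31 for Loxl2, 3.73 for Loxl3, 2.14 for Bmp1, 2.14 for Pcolce and 1.07 for Pcolce2. With a mouse left out they ran from 2.97 to 5.06 for Lox, 1.72 to 3.33 for Loxl1, 1.11 to 2.39 for Loxl2, 2.07 to 3.74 for Loxl3, 1.17 to 2.32 for Bmp1, 1.16 to 2.12 for Pcolce and 0.44 to 0.93 for Pcolce2. The median over all genes was 0.21, and 0.41 with TPM, 0.00 with median log-ratio scaling and 0.12 without mitochondrial genes. Lox was at 4.46, 3.51 and 3.82 under these scalings and Pcolce2 at 0.89, 0.41 and 0.54.

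Relative to the procollagens, 0 members were called above and 1 below. Below were 2 with Col1a1 alone as the reference (Pcolce at -2.20 besides Pcolce2), 0 with fibroblast markers, 6 without moderation, and 1 to 6 with a mouse left out, 6 only without MI replicate 2. Without moderation Loxl1 (-1.18), Loxl2 (-1.89), Loxl3 (-0.82), Bmp1 (-1.84) and Pcolce (-1.96) passed. With fibroblast markers 4 were above (1.54% of all tested genes), and the differences were 2.75 for Lox, 1.301 for Loxl1, 0.59 for Loxl2, 1.67 for Loxl3, 0.64 for Bmp1, 0.52 for Pcolce and -0.32 for Pcolce2. With a mouse left out the differences to the procollagens ran from 0.16 to 0.39 for Lox, -1.34 to -1.01 for Loxl1, -2.28 to -1.62 for Loxl2, -0.93 to -0.66 for Loxl3, -2.35 to -1.56 for Bmp1, -2.55 to -1.54 for Pcolce and -3.74 to -2.15 for Pcolce2. The Bmp1 to Pcolce log2 ratio ran from -0.018 without MI replicate 1 to 0.20 without MI replicate 2. Except for that pair, the shares and log2 ratios kept their direction under all alternatives run for them, though not their size: the Loxl1 share differed by -7.69 percentage points with fragments not divided by length (-5.03 with FPKM), and the Bmp1 to Pcolce log2 ratio by 0.19 with a pseudocount of 0.1 (0.12 with 1). The cause of these changes was not tested.

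The replicate numbers are shared by the groups in the titles, but the deviations of same-numbered mice correlated at 0.074, -0.016 and -0.080, so the numbers were not taken to pair the mice. With the replicate block 0 genes were called higher and 0 lower (1770 and 562 at an unadjusted p under 0.05), 0 members were called below the procollagens, with Pcolce2 at -2.77, and Lox was at 3.71 (limma adjusted p = 0.240).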
